A study of Homo sapiens with 26 samples.

Results

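The genes described here encode the machinery that receives proteins at the membrane of the endoplasmic reticulum (ER), moves them across it or inserts them into it, and modifies them as they arrive. The list of 40 genes was drawn up by function and by complex, not by measured values, although earlier results of these data were known. It was taken out of 60663 genes in the RNA-seq tables and 58849 entries in the ribosome profiling tables. It holds the SRP receptor (2 genes), the Sec61 channel (2), Sec62/Sec63 (2), TRAP and TRAM (5), signal peptidase (5), oligosaccharyltransferase (12), the ER membrane protein complex or EMC (8) and the multipass translocon (4). By membrane topology, 21 of the products are multi-pass, 15 span the membrane in 1 segment, 3 are peripheral and 1 is tail-anchored. The question is where the ribosomes that make this machinery sit, and whether subunits of 1 complex with different topology or size are made in the same place.

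In cotranslational targeting, the signal recognition particle (SRP) binds a hydrophobic signal or transmembrane segment as it leaves the ribosome and brings the ribosome to the SRP receptor, which hands it to the Sec61 channel. TRAP and TRAM assist the channel, signal peptidase removes signal sequences, and oligosaccharyltransferase adds glycans to the chain in the lumen. The EMC inserts tail-anchored proteins and some segments of multi-pass proteins, and the multipass translocon handles multi-pass substrates. A very short protein or a tail-anchored protein can be finished before its hydrophobic segment is out of the ribosome, and such proteins are known to reach the ER after translation, by the EMC, by the GET pathway or by other routes.

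HEK293T cells, a human embryonic kidney line, carried an Avi tag on endogenous RPL29 and the light-activated biotin ligase LOV-BirA, which was anchored at the ER by a Sec61β fusion (polyclonal line, SFFV promoter), anchored at the outer mitochondrial membrane (OMM) by the OMP25 transmembrane domain, or free in the cytosol (both from the EF1α promoter). Ribosome profiling had 2 lysates for each location, all treated with cycloheximide (CHX), each with a total input and a streptavidin pulldown, 12 libraries in all. RNA-seq of the OMM pulldown had 2 lysates each of a wild-type line carrying a control guide RNA, of an AKAP1 null line and of a LARP4 null line, with 1 lysate without CHX whose label gives no genotype, 14 libraries in all. Each null genotype is 1 monoclonal line, CHX in these lines is taken from the general protocol, and nothing in the labels says that replicates came from separate cultures, so p-values measure the spread between these lysates.

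Libraries held 1025114 to 19539527 estimated footprints in coding sequences and 38347615 to 100840544 RNA-seq counts. AKAP1 was at 13.4 to 32.2 counts per 1000000 (CPM) in the AKAP1 null libraries and at 86.3 to 311 elsewhere, and LARP4 was at 37.2 to 79.3 CPM in the LARP4 null libraries and at 147 to 247 elsewhere. VIM, at 442 to 868 CPM, KRT18, KRT8 and PAX2, genes that these cells are known to express, were present in all 14 RNA-seq libraries, and PTPRC, ALB and HBB were at no more than 0.165 CPM. The coding sequence of the ER bait, SEC61B, is not among the 40 genes.

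Before the locations are compared, the level at which each gene was translated was read from the total inputs as RPKM. This is the deposited reads per kilobase of coding sequence, scaled to the mapped reads of the library, so length is divided out. Whether such densities can be compared between very short and long coding sequences was not tested. The 3 highest were the OST subunit OST4, at 1005 ± 143 RPKM (SD, n = 6), the Sec61 subunit SEC61G, at 726 ± 149, and the TRAP subunit SSR4, at 662 ± 60.2. The 3 lowest were EMC6 (32.4 ± 3.91), SEC63 (36.4 ± 9.18) and TMCO1 (37.5 ± 13.6). Of the 39 neighbouring pairs in this order, 38 had overlapping ranges over the 6 total inputs, the exception being TMEM258 (435 to 837 RPKM) and OSTC (353 to 422), so the order is firm over long distances only. In these bulk samples, fewer cells making a protein and less of its mRNA per cell cannot be told apart.

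**Figure D1:**
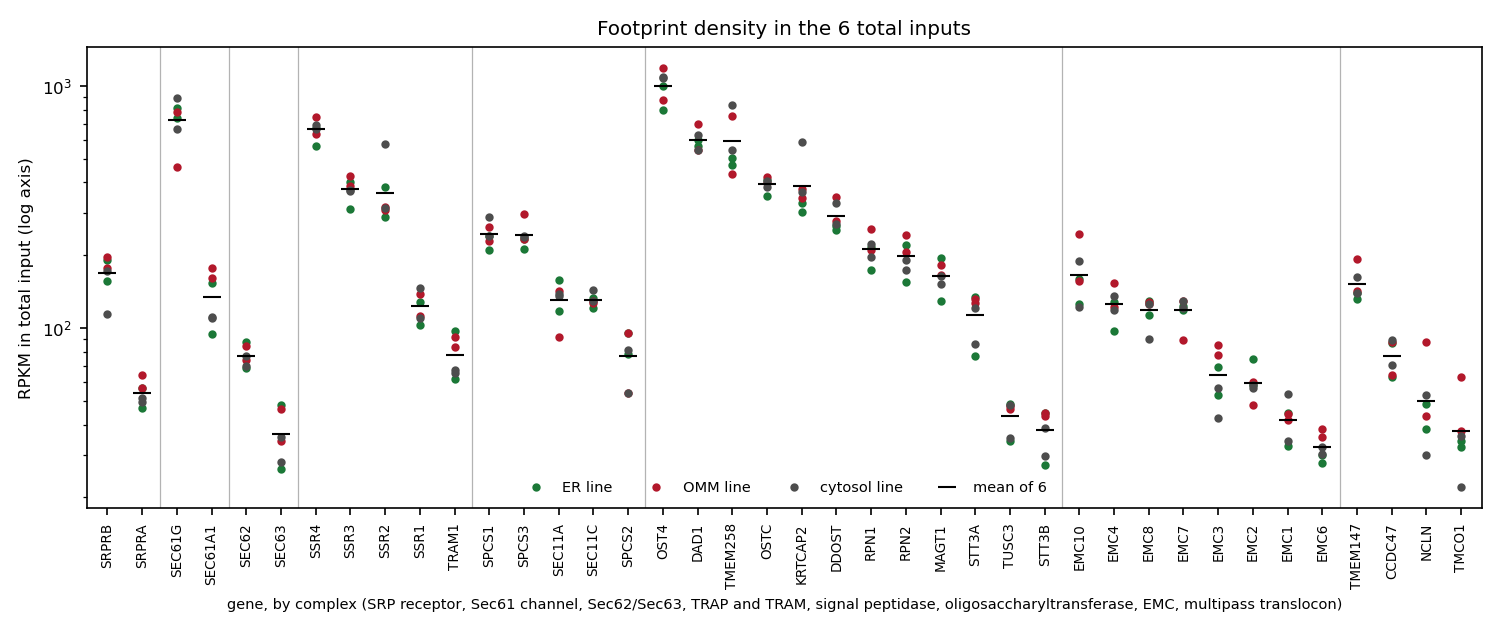
RPKM of the 40 genes in the 6 total inputs (log axis), with 1 point per library coloured by line and a bar at the mean, grouped by complex in the order given under the axis. OST4 and SEC61G sit at the top, near 1005 and 726 RPKM, and EMC6 at the bottom, near 32.4 RPKM.

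Within complexes the densities were far from equal. In the Sec61 channel, SEC61G (465 to 894 RPKM) was above the pore-forming subunit SEC61A1 (94.7 to 177) in every total input. In oligosaccharyltransferase, the mean of the catalytic subunit STT3A, which works with the channel during translation, was 113 ± 25.3 RPKM, and that of STT3B, which glycosylates sites that STT3A has passed over, was 38.1 ± 7.79. The ranges of STT3A (76.5 to 135) and STT3B (27.4 to 44.8) did not overlap. MAGT1 and TUSC3, the alternative oxidoreductase subunits that go with STT3B, were at 130 to 194 and 34.2 to 48.5 RPKM and did not overlap either. The alternative catalytic subunits of signal peptidase, SEC11A and SEC11C, were alike in mean, at 131 ± 22.9 and 131 ± 7.66 RPKM. By the study's methods, positions without a unique alignment are masked, and some genes were counted over part of their coding sequence. SPCS2, for example, was counted over 214 coding positions for a protein of 226 residues, and a density then rests on the positions that remain. Why positions are missing in a given gene was not tested.

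At the ER, ribosomes making nearly all of these proteins were enriched. Of the 37 genes tested, 33 were higher in the ER pulldown than in its total input at an adjusted p below 0.05 and 3 were lower, where 19.8% of all 7381 genes tested were higher and 72.0% lower. The median log2 enrichment was 1.75 for the 37 genes and -0.68 for all genes tested, and 36 of the 37 lay above the latter. Since library totals set the scale and most genes fell, values near -0.68 are those of a typical gene. The 3 genes without a test were SSR1 and KRTCAP2, whose entries are shared with an overlapping gene, and TMCO1, which had fewer than 64 footprints in a total input. Their log2 ratios in the 2 ER lysates were 2.39 and 2.14 for the SSR1 entry, 1.74 and 1.803 for the KRTCAP2 entry, and 2.18 and 1.99 for TMCO1.

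**Figure D2:**
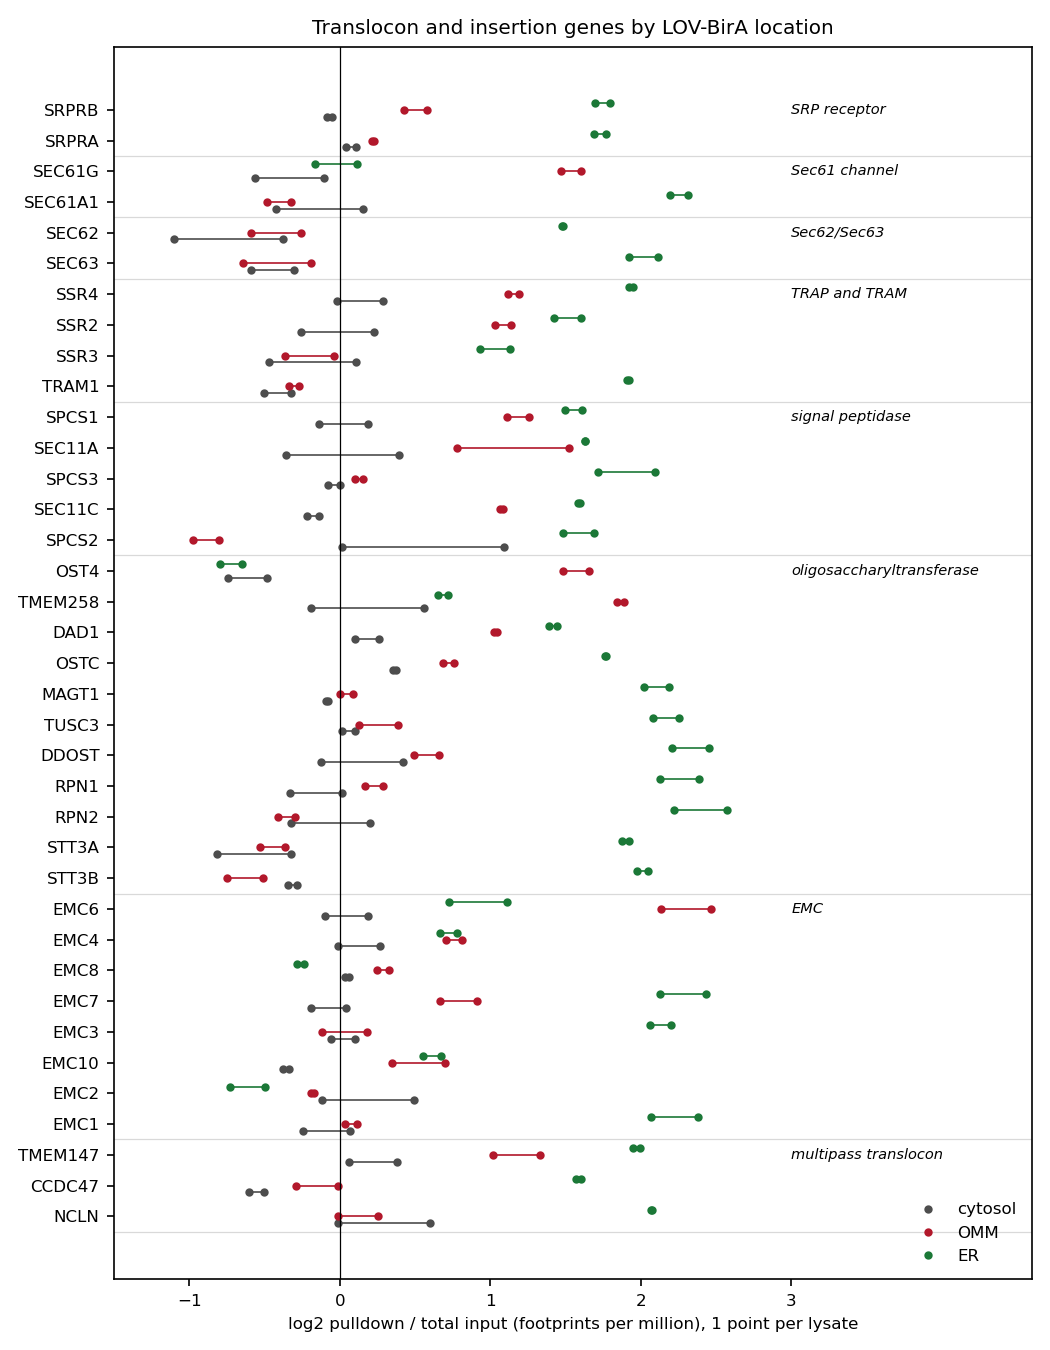
Log2 of pulldown over total input, in RPM (footprints per 1000000 in coding sequences), for the 37 genes tested, with 1 point per lysate and a line joining the 2 lysates of the ER (green), OMM (red) and cytosolic (grey) LOV-BirA, grouped by complex and ordered by protein length within it. Green points lie right of 0 for all but OST4, EMC2, EMC8 and SEC61G, and red points lie farthest right for EMC6 and TMEM258.

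Both subunits of the SRP receptor were enriched at the ER, although SRPRA, the SRP-binding subunit, is peripheral and has no hydrophobic segment by the sliding-window measure used here. SRPRA had 222 and 234 RPM in the ER total inputs and 755 and 754 in the pulldowns, a log2 enrichment of 1.73 ± 0.09 (SE; adjusted p = 1.1e-11). SRPRB, its membrane-spanning partner, had 317 and 336 against 1099 and 1088, a log2 of 1.75 ± 0.091 (adjusted p = 1.06e-11). In both, each pulldown was above each total input.

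The channel itself split by subunit. SEC61A1, the multi-pass pore, had 282 and 395 RPM in the total inputs and 1403 and 1806 in the pulldowns, a log2 enrichment of 2.25 ± 0.116 (adjusted p = 9.52e-12). SEC61G, the tail-anchored subunit of 68 residues (GRCh38 chr7:54752250-54759974, minus strand), had 287 and 273 in the total inputs and 256 and 296 in the pulldowns, so that the groups overlapped and the log2 was -0.03 ± 0.109 (adjusted p = 0.812). That is 0.65 above the median of all genes tested, against 2.935 for SEC61A1. The lack of a call for SEC61G is thus on the scale set by library totals. Sec62 and Sec63, which assist the channel with substrates that arrive after translation, were both enriched. SEC62 went from 105 and 116 to 293 and 322 RPM (log2 1.48 ± 0.129) and SEC63 from 86.2 and 138 to 373 and 524 (log2 2.02 ± 0.11).

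All 4 tested genes of TRAP and TRAM were enriched at the ER. SSR4 was the highest, with 732 and 753 RPM in total input against 2772 and 2909 in the pulldowns (log2 1.94 ± 0.092), and SSR3 the lowest, with 266 and 297 against 508 and 651 (log2 1.03 ± 0.12). SSR4 and SSR2 span the membrane in 1 segment, and SSR3 and TRAM1 are multi-pass, so in TRAP the lower value belonged to the multi-pass subunit. All 5 signal peptidase genes were enriched within a narrow band, from 1.55 ± 0.101 for SPCS1 (172 and 171 against 483 and 522 RPM) to 1.901 ± 0.101 for SPCS3 (271 and 258 against 891 and 1102). SEC11A, at 75 and 87.1 against 232 and 270, and SEC11C, at 113 and 108 against 342 and 325, had log2 values of 1.63 ± 0.15 and 1.59 ± 0.093, which differ by less than either SE.

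Oligosaccharyltransferase held both the highest and the lowest value of all 37 genes. RPN2, a large subunit, had 690 and 852 RPM in total input and 4108 and 3965 in the pulldowns, a log2 of 2.40 ± 0.117 (adjusted p = 5.7e-12). OST4, a subunit of 37 residues that is little more than 1 transmembrane segment (GRCh38 chr2:27070472-27071654, minus strand), had 280 and 194 in total input and 161 and 124 in the pulldowns, a log2 of -0.72 ± 0.098 (adjusted p = 2.09e-06). That is the level of a typical gene, -0.04 from the median of all genes tested, and with TMM scaling it was -0.08 and not called. The other 9 tested subunits lay between 0.69 ± 0.127 (TMEM258, 79 residues) and 2.33 ± 0.114 (DDOST), all of them called higher. STT3A went from 366 and 559 to 1383 and 2053 RPM (log2 1.898 ± 0.107) and STT3B from 168 and 237 to 694 and 931 (log2 2.01 ± 0.094). TUSC3 went from 78.1 and 96 to 372 and 405 (log2 2.17 ± 0.102) and MAGT1 from 329 and 425 to 1495 and 1730 (log2 2.11 ± 0.091), so the alternative subunits of each pair differed by about their SE at most.

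The EMC was the most mixed complex, with 6 of 8 genes higher and 2 lower at the ER. EMC7, a lumenal subunit with a signal sequence, had 216 and 180 RPM in total input and 1164 and 789 in the pulldowns (log2 2.29 ± 0.106), and EMC1 (2.23 ± 0.106) and the insertase subunit EMC3 (2.13 ± 0.102) were close to it. EMC2 and EMC8, the cytosolic subunits, had pulldowns below their total inputs, at 129 and 144 against 77.9 and 102 for EMC2 (log2 -0.62 ± 0.124, adjusted p = 0.000163) and 134 and 132 against 110 and 112 for EMC8 (-0.26 ± 0.095, adjusted p = 0.0152). Both directions depend on the scale, since with TMM scaling the values were 0.03 and 0.38. Between these extremes lay EMC6 (0.90 ± 0.146), EMC4 (0.72 ± 0.109) and EMC10 (0.61 ± 0.124). EMC10 was counted over 129 coding positions for a protein of 262 residues, and EMC4 over 276 for 183 residues. Footprint values of both genes, here and at the other locations, thus rest on part of the coding sequence. What share this has in their low ER values was not tested. In the multipass translocon the 3 tested genes were all enriched, from CCDC47, at 126 and 150 against 374 and 457 RPM (log2 1.59 ± 0.096), to NCLN, at 153 and 103.9 against 641 and 438 (log2 2.07 ± 0.12).

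At the OMM small subunits were enriched and large multi-pass subunits were not. Of 37 genes tested, 18 were higher in the OMM pulldown and 8 lower, where 17.0% of 6728 genes were higher and 46.0% lower, with medians of 0.24 for the 37 genes and -0.38 for all genes. With TMM scaling 26 were higher and 1 lower, and with DESeq2 26 and 0, because these set the median of all genes near 0. The highest value belonged to EMC6 (GRCh38 chr17:3668812-3669668, plus strand), whose product of 110 residues forms the insertase core with EMC3. Its RPM were 27.4 and 25.9 in total input and 151 and 114 in the pulldowns, a log2 of 2.30 ± 0.164 (adjusted p = 3.26e-09). TMEM258, of the OST, had 216 and 128 against 802 and 459 (log2 1.87 ± 0.135). OST4 had 288 and 218 against 909 and 609 (log2 1.57 ± 0.102). SEC61G had 157 and 270 against 475 and 746 (log2 1.53 ± 0.118). These 4 products have 37 to 110 residues, and in each gene the pulldowns were above the total inputs.

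A further group of 7 genes had OMM log2 values close to 1, and all 7 were also enriched at the ER. From signal peptidase, SPCS1 had 162 and 189 RPM in total input and 389 and 407 in the pulldowns (log2 1.18 ± 0.108). SEC11C had 103 and 107 against 218 and 223 (1.07 ± 0.105), and SEC11A had 50.7 and 80 against 146 and 137 (1.09 ± 0.181). The lysates of SEC11A were the least alike, with log2 ratios of 1.52 and 0.78. From TRAP, SSR4 had 835 and 725 against 1815 and 1653 (1.15 ± 0.092), and SSR2 had 283 and 282 against 578 and 620 (1.09 ± 0.113). TMEM147, of the multipass translocon, had 114 and 86.3 against 287 and 175 (1.17 ± 0.119), and DAD1, of the OST, 422 and 335 against 859 and 692 (1.04 ± 0.092). The SE of these 7 values ranged from 0.092 to 0.181, so their order is not resolved.

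The other 7 genes called higher at the OMM lay below a log2 of 1. EMC7 had 135 and 200 RPM in total input and 254 and 318 in the pulldowns (log2 0.78 ± 0.115), EMC4 had 90.9 and 73.9 against 159 and 120 (0.75 ± 0.126), and OSTC had 120 and 117 against 193 and 197 (0.73 ± 0.105). DDOST had 994 and 811 against 1573 and 1142 (0.58 ± 0.112), EMC10 had 67.7 and 44.4 against 86 and 72.2 (0.54 ± 0.148), SRPRB had 345 and 316 against 515 and 424 (0.50 ± 0.095), and EMC8 had 129 and 134 against 153 and 168 (0.29 ± 0.11). In all 7 genes the pulldowns and total inputs did not overlap. DDOST, with 439 residues, was the only 1 of the 11 genes over 400 residues to be called higher at the OMM.

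The 8 genes called lower at the OMM were all multi-pass, with fitted values from -0.85 ± 0.274 for SPCS2 through STT3B (-0.61), SEC63 (-0.46), STT3A (-0.45), SEC62 (-0.45), SEC61A1 (-0.41) and RPN2 (-0.35) to TRAM1 (-0.31 ± 0.108). Apart from SPCS2 and STT3B they lay within 0.1 of the median of all genes, so in relative terms they were at the level of a typical gene, and TRAM1 had a positive sign with TMM scaling (0.01) and with DESeq2 (0.04). STT3B alone was called lower with TMM. Without OMM lysate 1 the count was 3, and without OMM lysate 2 it was 1.

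When the ER and OMM enrichments were compared in the same fit, 28 of the 37 genes were higher at the ER and 5 at the OMM, where 18.6% of 6675 genes were higher at the ER and 31.1% at the OMM. The 5 with more enrichment at the OMM were OST4 (ER minus OMM log2 -2.29 ± 0.141), SEC61G (-1.56 ± 0.161), EMC6 (-1.40 ± 0.22), TMEM258 (-1.18 ± 0.184) and EMC8 (-0.55 ± 0.145). The median of all genes in this comparison was -0.28. EMC8 lay only -0.27 from that median, against -0.90 for TMEM258 and -2.01 for OST4. The widest differences toward the ER were RPN2 (2.75 ± 0.164), SEC61A1 (2.66 ± 0.166) and STT3B (2.62 ± 0.142). Thus the 2 Sec61 subunits lay on opposite sides, as did OST4 and TMEM258 against the 9 other tested subunits of the OST, and EMC6 against EMC1, EMC3 and EMC7. The difference was not called for EMC4 (-0.04 ± 0.165), EMC10 (0.07 ± 0.192), EMC2 (-0.43 ± 0.199) and SEC11A (0.54 ± 0.232). In total 15 genes were called higher at both places, 8 higher at the ER and lower at the OMM, 10 higher at the ER and not called at the OMM, and 2, OST4 and EMC8, lower at the ER and higher at the OMM.

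**Figure D3:**
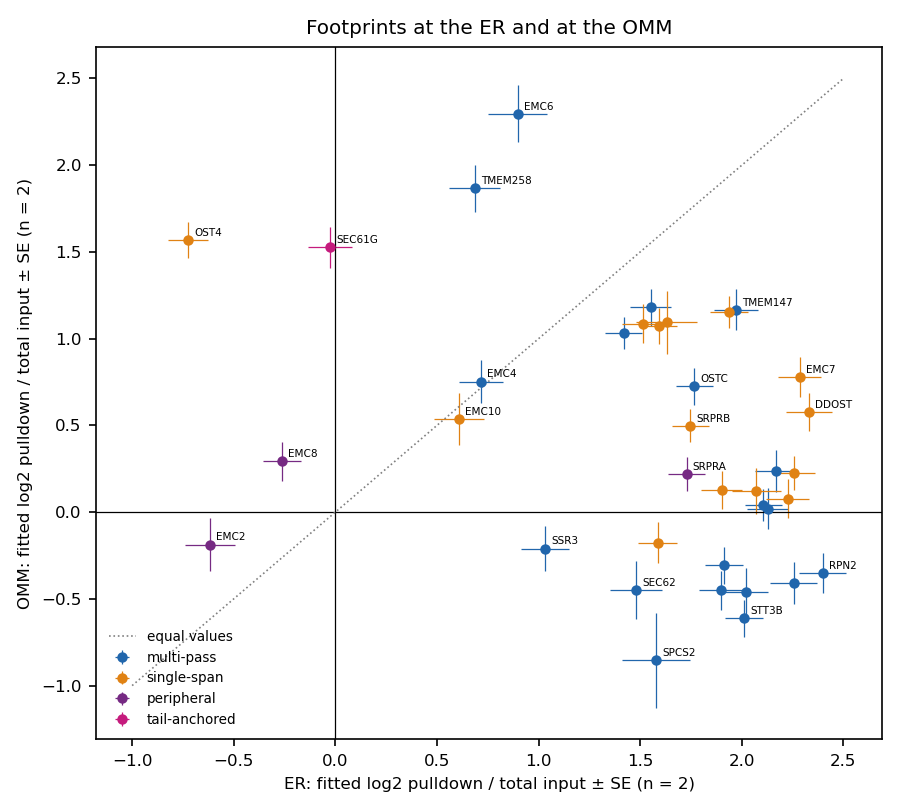
Fitted log2 enrichment at the ER (horizontal) and at the OMM (vertical) for the 37 genes tested, with SE bars (n = 2 lysates each), coloured by topology, and a dotted line of equal values. OST4, SEC61G, TMEM258, EMC6 and EMC8 lie above the line and were called higher at the OMM than at the ER. EMC2 and EMC4 also lie above it but were not called, and most multi-pass subunits lie at the lower right. A typical gene also lies above the line, since the median ER minus OMM value of all genes was -0.28.

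At the ER, 19 of 19 multi-pass genes tested were higher (median log2 1.898), as were 13 of 14 single-span genes (median 1.82), 1 of 3 peripheral genes (SRPRA) and not the tail-anchored SEC61G. At the OMM, 7 of 19 multi-pass genes were higher and 8 lower (median 0.02), 9 of 14 single-span genes were higher and 0 lower (median 0.56), 1 of 3 peripheral genes was higher (EMC8), and so was SEC61G. By length, 12 of 14 genes under 200 residues were higher at the OMM (median 1.09), 5 of 12 from 200 to 400 residues (median 0.14) and 1 of 11 over 400 residues (median -0.18). Under 200 residues the multi-pass and single-span genes had similar OMM medians, 1.03 (7 genes) and 1.09 (6 genes). Over 400 residues the 5 multi-pass genes were all lower at the OMM (median -0.45), and of the 5 single-span genes 1 was higher and 0 lower (median 0.12). These groups are small and were not tested against each other.

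The same trend with length ran through the whole data set. Of all genes under 200 residues, 60.2% were higher at the OMM, of those from 200 to 400 residues 20.3%, and of those over 400 residues 6.0%. Among genes under 200 residues with a predicted hydrophobic segment 67.7% were higher at the OMM and 67.2% at the ER. Across the 37 genes, the rank correlation of protein length with the OMM value was -0.77, and with the ER value it was 0.608. Over all genes tested it was -0.619 at the OMM and -0.355 at the ER, so the OMM relation had the direction seen in all genes and the ER relation the opposite one. The sets are unlike, since most of all genes tested have no predicted hydrophobic segment, whereas 34 of the 37 have 1 or more. Among all genes with a segment, the ER median was 0.94 under 200 residues, 1.57 from 200 to 400 and 0.42 over 400. The correlations are across genes of the same libraries, and coding length also sets how many footprints a gene receives.

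**Figure D4:**
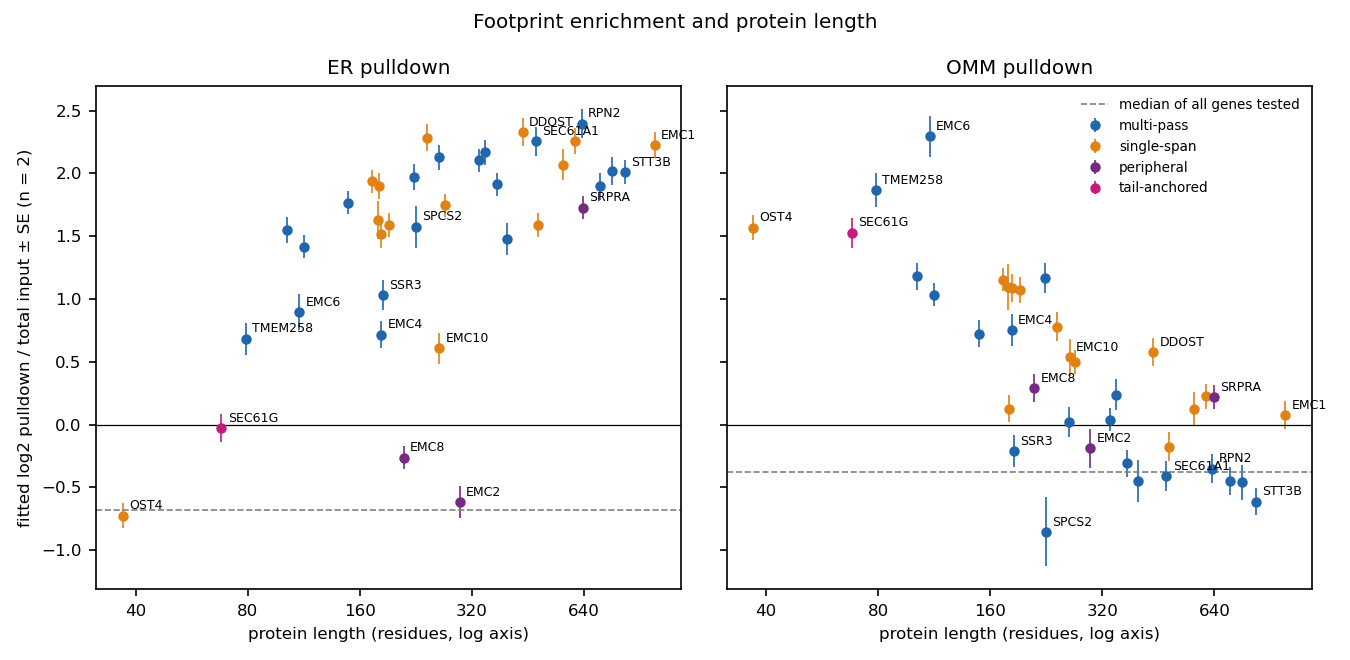
Fitted log2 enrichment with SE (n = 2 lysates) against protein length (log axis) at the ER (left) and at the OMM (right), coloured by topology, with a dashed line at the median of all genes tested (-0.68 and -0.38). From OST4 with 37 residues to EMC1 with 993, ER values climb from -0.72 to above 2 and OMM values drop from above 1.5 to near or below 0, and the peripheral EMC2 and EMC8 lie low at the ER for their length.

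A feature that the list was not chosen on is how much of the protein follows its first hydrophobic segment, a window of 19 residues with mean Kyte-Doolittle hydropathy of at least 1.6. In OST4 12 residues follow it, in SEC61G 14, in EMC4 35, in TMEM258 40 and in EMC6 43. These 5 genes had ER log2 values of -0.72, -0.03, 0.72, 0.69 and 0.90, all below the median of 1.75. EMC1 is the exception, with 14 residues after the only segment found and an ER value of 2.23, and it is a long lumenal protein with a signal sequence that the window did not pick up. The same fault may affect EMC4, which is multi-pass although the window found only 1 segment in it. An earlier segment may have been missed there, and its remainder of 35 residues is then too short. SSR3 (109 residues after the segment, ER value 1.03) and EMC10 (243 residues, 0.61) were also low without being short after the segment. EMC8 was lower still, at -0.26, with 132 residues after the segment that the window marked. It is a peripheral protein, so the window can also mark a stretch that does not span the membrane. Over the 34 tested genes with a segment the rank correlation of this remainder with the ER value was 0.62, and over all 2136 tested genes with a segment it was 0.064. With a stricter hydropathy of 2.0, 13 of the 40 proteins had no segment at all, against 3 at 1.6, and the 3 included SSR2, which is known to span the membrane, so the measure misses segments.

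With free LOV-BirA in the cytosol 29 of the 37 genes tested were not called, 1 was higher and 7 were lower. Of all 7162 genes tested 2.02% were higher and 5.96% lower, a smaller share lower than among the 37. OSTC was the gene called higher, with 127 and 117 RPM in total input and 164 and 149 in the pulldowns (log2 0.36 ± 0.093, adjusted p = 0.021). The 7 called lower were SEC62 (-0.71 ± 0.136), OST4 (-0.61 ± 0.098), STT3A (-0.57 ± 0.106), CCDC47 (-0.56 ± 0.098), SEC63 (-0.44 ± 0.114), TRAM1 (-0.41 ± 0.095) and STT3B (-0.31 ± 0.094), of which 6 were well enriched at the ER and OST4 was not. These counts are sensitive to the totals used, since with all mapped reads as the library total 13 were higher and 4 lower. ER minus cytosol gave 33 genes higher and 2 lower (19.6% and 62.6% of all genes), the 2 being EMC2 and EMC8. Those 2 lay at -0.14 and 0.35 from the median of all genes, and 0 were lower with TMM, with DESeq2 or without the lysate term, and 1 without any 1 of the 4 lysates. OMM minus cytosol gave 19 higher and 1 lower (16.6% and 39.7%), the 1 being SPCS2. The 3 comparisons of locations share libraries with each other and are not independent.

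The mRNAs were also measured by RNA-seq of the OMM pulldown, in other libraries, for all 40 genes. In wild-type cells 23 were higher in the pulldown and 7 lower, where 20.2% of 13856 genes were higher and 45.6% lower (median 0.45 for the 40 genes and -0.28 for all genes). With TMM scaling the split was 26 and 2. All 18 genes whose footprints were called higher at the OMM were also called higher in RNA-seq, and of the 8 called lower in footprints 4 were lower, 3 were not called and 1, SPCS2, was higher. The rank correlation of both measures over the 37 genes was 0.894. TMEM258 was the highest, with 38.7 and 39.6 CPM in total input and 171 and 166 CPM in the pulldowns (log2 2.11 ± 0.101), followed by EMC6 (1.65 ± 0.097), DAD1 (1.604 ± 0.1), OST4 (1.601 ± 0.118), TMEM147 (1.58 ± 0.107) and SEC61G (1.47 ± 0.103). For SPCS2, RNA-seq gave 34.6 and 31.5 CPM against 47.4 and 41.8 (log2 0.43 ± 0.115), whereas its footprints went from 24.8 and 44.8 to 12.6 and 25.7 RPM, log2 ratios of -0.98 and -0.80 within the lysates. The gene is among those with many coding positions not counted, and what share this has in the disagreement was not tested. KRTCAP2 was at 3.5 to 6.4 CPM in every RNA-seq library, and since it overlaps another gene its values are uncertain.

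AKAP1 is an OMM protein that binds RNA, and in the AKAP1 null line EMC6, OST4 and SEC61G were no longer called higher in the OMM pulldown, while TMEM258 was still called at a lower value (0.34 ± 0.098). EMC6 had CPM of 30.5 and 31.2 in wild-type total input and 91.2 and 103 in the pulldowns, and in AKAP1 null cells 33 and 29 in total input and 27.8 and 27.9 in the pulldowns. TMEM258 had 38.7 and 39.6 against 171 and 166 in wild type, and 33.3 and 32.4 against 45.4 and 38.2 in the null line. OST4 had 97.1 and 86.7 against 283 and 274 in wild type, and 81.2 and 88 against 88.4 and 75.4 in the null line. SEC61G had 70.1 and 60.2 against 186 and 173 in wild type, and 58.2 and 64.7 against 66.4 and 59.6 in the null line. In each of the 4 genes both null lysates had a lower ratio than both wild-type lysates, and the total inputs were alike.

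Tested as AKAP1 null minus wild type, 7 of the 40 genes were lower and 2 higher, where 7.96% of 13856 genes were lower and 6.52% higher. The 7 were EMC6 (log2 difference -1.802 ± 0.136, adjusted p = 0.00033), TMEM258 (-1.76 ± 0.139, adjusted p = 0.00033), OST4 (-1.65 ± 0.165, adjusted p = 0.000598), SEC61G (-1.43 ± 0.144, adjusted p = 0.000598), TMEM147 (-0.74 ± 0.148), SPCS1 (-0.70 ± 0.167) and DAD1 (-0.63 ± 0.139). The 2 called higher were STT3B (0.60 ± 0.139) and SEC62 (0.55 ± 0.132), against a median shift of 0.19 over all genes, and with TMM scaling, which removes that shift, 9 were lower and 0 higher. By DESeq2 12 were lower and 0 higher. When any 1 of the 4 lysates of wild type and AKAP1 null cells was left out, 4 genes were called lower, EMC6, TMEM258, OST4 and SEC61G each time, and 0 higher. By length, 6 of 16 genes under 200 residues were lower, 1 of 13 from 200 to 400 residues and 0 of 11 over 400 residues. Over all genes the shares called lower were 39.6%, 8.49% and 0.825% in the same order, so the small subunits were called at about the rate of other small genes. The rank correlation of length with this difference was 0.813 over the 40 genes and 0.496 over all genes.

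**Figure D5:**
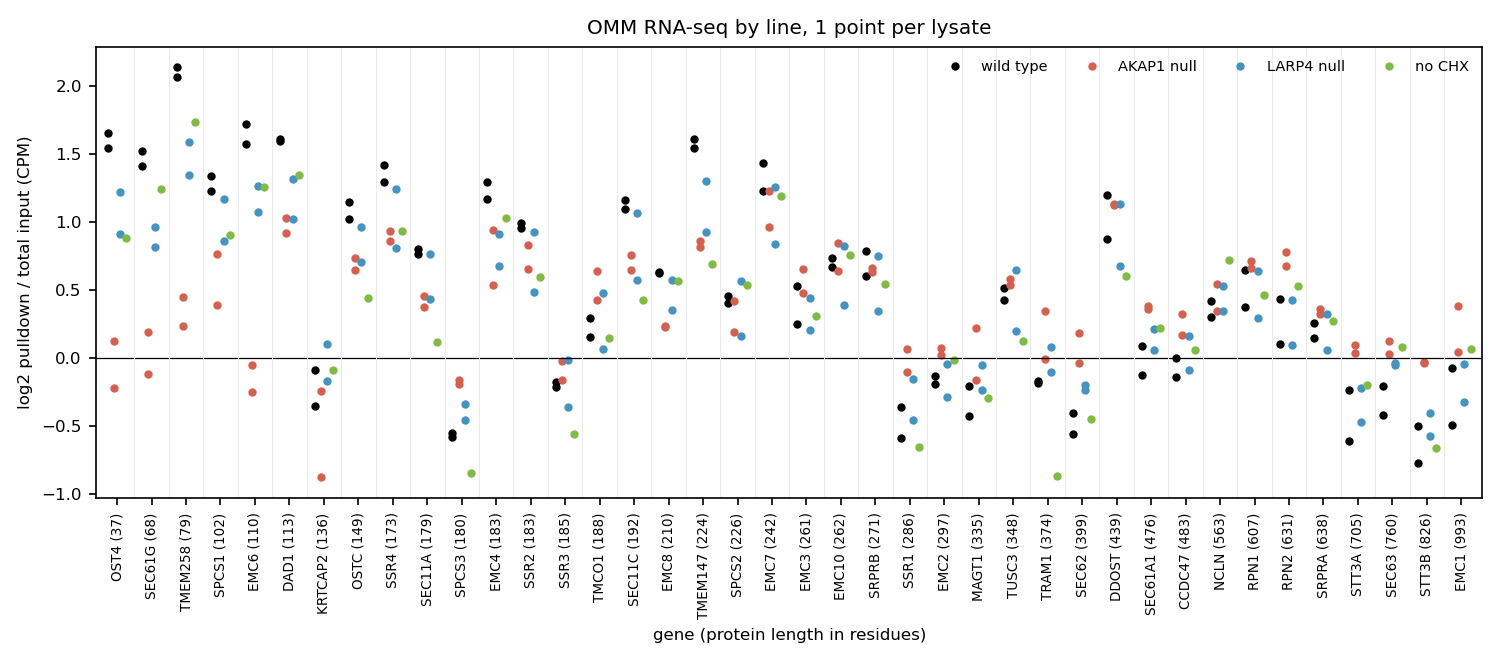
Log2 of pulldown over total input in OMM RNA-seq for the 40 genes in order of protein length (residues in parentheses), with 1 point per lysate of wild type (black), AKAP1 null (red), LARP4 null (blue) and cells without CHX (green). For OST4, SEC61G, TMEM258 and EMC6 the red points lie near 0, between -0.25 and 0.45, and the black points between 1.41 and 2.14.

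Within the AKAP1 null line 22 of the 40 genes were called higher in the pulldown and 1 lower, the latter KRTCAP2, where 13.9% and 28.1% of all genes were. Of the 23 called higher in wild type, 18 were also called in the null line, and EMC6, OST4, SEC61G, SPCS2 and EMC8 were not. The other 4 called in the null line, RPN2 (0.73), TMCO1 (0.53), SEC61A1 (0.37) and SRPRA (0.34), were not called in wild type, and their differences from wild type (0.14 to 0.46) were not called. DDOST (1.13 ± 0.128), EMC7 (1.10 ± 0.124), DAD1 (0.97 ± 0.099), SSR4 (0.90 ± 0.113) and TMEM147 (0.84 ± 0.105) headed the order there, DAD1 and TMEM147 among the genes called lower than in wild type. DDOST and EMC7, which are single-span proteins of 439 and 242 residues, had differences from wild type of 0.09 ± 0.179 and -0.23 ± 0.173, neither of them called. EMC6, OST4 and SEC61G were at -0.15, -0.05 and 0.04, near the median of all genes in that line (-0.12).

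LARP4, another RNA-binding protein, gave smaller values. In LARP4 null cells 23 of the 40 genes were higher in the OMM pulldown and 4 lower, where 22.8% and 30.0% of all genes were. Set against wild type by edgeR, 0 of the 40 were called in either direction, as were 0.0% of all genes, with 7 of the 40 and 2270 of all genes at an unadjusted p below 0.05. DESeq2 called 7 lower and 0 higher. The lowest fitted differences were TMEM258 (-0.64 ± 0.138, adjusted p = 0.181), SEC61G (-0.58 ± 0.143, adjusted p = 0.232) and OST4 (-0.53 ± 0.164, adjusted p = 0.299), against a median of 0.17 over all genes. The LARP4 null lysates were not alike: TMEM258 had log2 ratios of 1.59 and 1.35, and SSR2 of 0.93 and 0.48. Without LARP4 null lysate 1 17 genes were called lower. The values of AKAP1 null and LARP4 null cells are set against the same wild-type libraries, and the genes with the lowest values in both share that control.

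The levels in total input gave no call in either null line. Against wild type, log2 differences of the 40 genes lay between -0.31 and 0.26 in AKAP1 null and between -0.39 and 0.27 in LARP4 null cells, with 0 called by edgeR or by DESeq2 and 0 and 1 at an unadjusted p below 0.05. Over all genes 0.0% were called in either direction in AKAP1 null cells and 0.00715% in each direction in LARP4 null cells.

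Without CHX, in 1 lysate, most of these mRNAs were above their total input in the OMM pulldown. By the study's methods, cells without CHX were also labelled for a shorter time than cells with CHX, so the drug and the labelling time cannot be told apart. The log2 ratio was above 0 for 30 of the 40 genes, with a median of 0.43, against 0.45 for the mean of wild type with CHX, while the median of all genes was -0.10 without and -0.28 with CHX. TMEM258 (1.74), DAD1 (1.35), EMC6 (1.26), SEC61G (1.24) and EMC7 (1.19) were the highest, and OST4 was at 0.88, below its 2 wild-type values of 1.54 and 1.66. The lowest were TRAM1 (-0.87), SPCS3 (-0.85) and STT3B (-0.67). In all, 23 genes were below both wild-type lysates and 11 above both. With 1 lysate these differences have no replicate check.

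Other genes of protein targeting, 24 in a second list by function, include soluble partners of the membrane machinery. Of the 6 SRP subunits, which are cytosolic proteins, 5 could be tested in footprints, and 0 were higher and 3 lower at the ER: SRP68 (-1.98 ± 0.203), SRP54 (-0.77 ± 0.159) and SRP14 (-0.52 ± 0.119), where 72.0% of all genes were lower. From the median of all genes SRP54 lay at -0.09 and SRP14 at 0.16, near a typical gene, and SRP68 was also lower with cytosolic LOV-BirA (-2.52). These values rest on part of each coding sequence, with 178 positions counted for SRP68 (627 residues), 162 for SRP54 (504) and 151 for SRP14 (136). The receptor for this particle, SRPRA, lay at 1.73 on the same scale. Of the 5 cytosolic factors of the GET pathway, which delivers tail-anchored proteins after translation, 4 were tested, with 0 higher and 3 lower, BAG6 at -0.98 ± 0.09 and the targeting ATPase GET3 at -0.82 ± 0.109, which are -0.30 and -0.14 from the median of all genes. CAMLG, the GET receptor gene with a test, was higher at the ER (0.63 ± 0.1), and GET1 shares its footprint entry with other genes, with log2 ratios of 1.04 and 1.09 for that entry. EMC9, the paralog of EMC8, was at -0.01 ± 0.182. The 3 tested genes of other membrane subunits, TRAM2, SEC61A2 and MMGT1 (EMC5), were all higher at the ER, at 1.77, 1.64 and 1.47.

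SEC61B, the third Sec61 subunit, is tail-anchored like SEC61G and is the bait protein of the ER line. Its RPM were 52.2 and 60.7 in the ER total inputs, within or near the 36.4 to 54.9 of the other 4 total inputs. It was higher both at the ER (0.70 ± 0.131) and at the OMM (1.46 ± 0.159), whereas SEC61G was called higher at the OMM and was not called at the ER. From the ER median of all genes SEC61B lay at 1.38 and SEC61G at 0.65. In OMM RNA-seq SEC61B was at 1.64 ± 0.114 in wild type and differed by -1.56 ± 0.158 in AKAP1 null cells (adjusted p = 0.000598), beside -1.43 for SEC61G. In the ER line, transcripts of the fusion and of the endogenous gene cannot be told apart in these counts. The OMM footprints and RNA-seq came from cells with the OMP25 anchor instead. Footprints of SEC61B were counted over 55 coding positions for a protein of 96 residues, so they rest on part of the coding sequence.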

How the data were processed

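Ribosome profiling (12 libraries) and OMM RNA-seq (14 libraries) of HEK293T cells were used. For footprints the authors aligned reads with TopHat to GRCh38, assigned them with plastid after masking positions that are not unique, and deposited an estimated count and an RPKM per gene region. For RNA-seq the authors ran STAR and featureCounts, and the deposited values are a whole-number count for each gene. The column that the authors deposited as FPKM was treated as a score and not used. Of the 58849 entries for footprints, 1079 name several genes and were not tested, except in an alternative chosen after seeing the data, and 3 to 7 broken lines per RNA-seq file were skipped.

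Estimated counts were rounded and tested with edgeR 4.0.16 (quasi-likelihood, two-sided) in R 4.3.3, with library totals, a term per lysate and a pulldown effect per location or line. Genes needed 64 footprints in each total input compared, or a mean of 64 RNA-seq counts. Total inputs of the lines were compared with TMM. Adjusted p (Benjamini-Hochberg) is over all genes tested, and genes below 0.05 are called. SE was derived from the fitted log2 value and its F statistic. Pulldown and total input come from the same lysate, and their deviations between replicates correlated at r = 0.584 to 0.886. Protein lengths, coordinates and the hydropathy measure came from GENCODE 44 proteins on GRCh38. DESeq2 1.42.0, TMM, other minimums, all mapped reads as totals, no lysate term and leaving out each lysate were alternatives. Tests were tried on simulated data. Summaries used Python 3.11.15, numpy 2.4.6 and pandas 2.3.3, and figures matplotlib 3.10.9. The members, the related list and the rule for named genes (in full, the extremes of each complex at the ER, peripheral, tail-anchored and alternative subunits, and genes called at the OMM, in the cytosol or between lines) were chosen with earlier results of these data known.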

Additional observations from a re-analysis of the deposited data

Results flagged for a closer look

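Differences between locations, tested in the same fit, marked 4 results for a closer look: the 33 genes higher at the ER than with cytosolic LOV-BirA, the 28 higher and the 5 lower at the ER than at the OMM, and the 19 higher at the OMM than with cytosolic LOV-BirA. The differences between AKAP1 null and wild-type cells marked 9 single genes by their interaction test, EMC6 (log2 -1.802), TMEM258 (-1.76), OST4 (-1.65), SEC61G (-1.43), TMEM147 (-0.74), SPCS1 (-0.70), DAD1 (-0.63), SEC62 (0.55) and STT3B (0.60). Groups had 2 lysates each, so no search for a lysate far from the others was possible within a group.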

How the results depend on the processing

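Among calls of single genes, 1119 kept direction and side of the threshold, 159 kept direction only, and 6 reversed. The 6 were EMC8 at the ER (TMM 0.384, DESeq2 0.348, all mapped reads 0.023), EMC2 at the ER (TMM 0.03) and TRAM1 at the OMM (TMM 0.013, DESeq2 0.044), where the scale moves with the median of all genes, which was -0.68 at the ER with library totals and -0.03 with TMM. Among counts of members called, 148 stayed within 1.5 times and 55 did not. With TMM the counts were 0 lower at the ER, 1 lower at the OMM, 0 lower for ER minus cytosol, 2 lower in wild-type RNA-seq and 0 higher in AKAP1 null minus wild type. With DESeq2 they were 0, 0, 0, 2 and 0 in the same order, with 12 lower in AKAP1 null and 7 lower in LARP4 null minus wild type. Without the replicate block, the term that pairs pulldown and total input of a lysate, 1 was lower at the ER, 0 lower at the OMM, 0 higher and 0 lower in the cytosol, 0 lower for ER minus cytosol, 3 lower for ER minus OMM, 4 higher and 0 lower for OMM minus cytosol, 3 lower in wild-type RNA-seq, and 0 higher and 4 lower in AKAP1 null minus wild type. The replicate numbers do not pair lysates of different lines (r = -0.073 to 0.34 between total inputs), and with a replicate block the total inputs again gave 0 calls. With all mapped reads as totals, 13 were higher and 4 lower in the cytosol, 1 lower for ER minus cytosol and 6 lower for OMM minus cytosol. With a minimum of 10 counts, 1 was lower for ER minus cytosol. With no minimum, 3 were higher in the cytosol, 1 lower for ER minus cytosol, 6 higher in AKAP1 null and 3 lower in LARP4 null minus wild type. A hydropathy minimum of 2.0 left 13 proteins with no segment.

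Leaving out 1 lysate gave 1 to 3 lower at the OMM, 2 to 5 higher and 3 to 8 lower in the cytosol, 1 lower each time for ER minus cytosol, 0 to 4 lower for OMM minus cytosol, 2 to 6 lower in wild-type RNA-seq, 0 higher and 4 lower each time in AKAP1 null and 0 to 17 lower in LARP4 null minus wild type. The cytosol counts without lysate 1 and lysate 2 were 2 and 5 higher. For OMM minus cytosol, lower genes numbered 0 without OMM lysate 2, 2 without cytosol lysate 1 and 4 without cytosol lysate 2, and wild-type RNA-seq had 2 lower without wild-type lysate 2. The lone lysate is then assumed to vary like the other groups. The widest errors of footprint values at the ER and OMM belonged to SPCS2 (SE 0.167 and 0.274) and SEC11A (0.15 and 0.181). The cause of these changes was not tested beyond the shift in scale.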
